A study of Mus musculus with 6 samples.

Results

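The G1 cyclins and CDK inhibitors described here are 10 genes that control entry into the cell cycle: the D-type cyclins Ccnd1, Ccnd2 and Ccnd3, their kinases Cdk4 and Cdk6, the inhibitors Cdkn1a, Cdkn1b, Cdkn2a and Cdkn2b, and their shared target Rb1. They were picked as a group by gene name, with earlier results of these data known, and each matched 1 row among the 54146 genes of the table. They were measured by RNAseq in D2A1, a mouse mammary tumor cell line, grown as spheroids in Matrigel in medium with serum, in 3 libraries with recombinant GST (rGST, the control protein) and 3 with recombinant SLURP1 (rSLURP1), a secreted Ly6/uPAR-related protein. The labels give 50 nM for both proteins, and the study's methods give harvest on day 5. The labels name no edited gene, all 6 libraries come from this one line, and nothing in the labels says whether libraries of a treatment came from separate cultures, so the p-values measure the spread between these libraries, which may be technical.

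In the G1 phase, mitogens and adhesion to the matrix raise D-type cyclins, which bind CDK4 or CDK6 to form kinases that phosphorylate the retinoblastoma protein Rb. Phosphorylated Rb releases E2F transcription factors, which switch on cyclin E and the genes of DNA replication. INK4 inhibitors bind CDK4 and CDK6 and displace the D cyclin, while CIP/KIP inhibitors act on cyclin-CDK2 complexes and also help to assemble cyclin D with CDK4. In mammary tumors cyclin D1 is the best known of these proteins, and high p21 or p27 with low cyclin D is a textbook mark of arrested cells.

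With rSLURP1, Ccnd1 was 2.65-fold and Rb1 2.27-fold lower than with rGST, Cdkn1b was 1.66-fold lower, and Cdkn1a was 2.50-fold higher. These 4 genes kept their direction and passed the test whether or not the libraries were rescaled. The share of all tested genes that did so was not counted. The other 6 (Ccnd2, Ccnd3, Cdk4, Cdk6, Cdkn2a and Cdkn2b) were 1.16-fold to 1.40-fold lower in the TPM as deposited. With median-ratio scaling the direction turned in Ccnd3, Cdk4 and Cdkn2b, and Ccnd2, Cdk6 and Cdkn2a no longer passed. The CIP/KIP inhibitors moved apart, with Cdkn1a higher and Cdkn1b lower under both scalings.

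Values are TPM, a unit in which reads are divided by transcript length and every library is brought to 1 common total, so that levels can be compared between genes. Read depth cannot be recovered from it, and the counting error behind each value is unknown. The test was limma on log2(TPM + 1), run on the 12301 genes that reached 1 TPM in 3 or more libraries. All 10 genes passed this filter. A gene was called changed at a Benjamini-Hochberg adjusted p of 0.05 or less. Fold changes on this scale understate those of low genes. Over all tested genes the median log2 fold change was −0.33 as deposited and 0.00626 after median-ratio scaling, which divides each library by the median ratio of its genes to their geometric mean, so each gene is given under both. An exact permutation test of 1 gene in 3 against 3 libraries cannot go below a two-sided p of 0.1. As deposited, 67.2% of tested genes were called, 8.66% higher and 58.5% lower, and after median-ratio scaling 26.6% were higher and 24.6% lower.

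The libraries held 12390 to 12449 genes at 1 TPM or more with rGST and 11906 to 11981 with rSLURP1. Markers of other cell types were checked in them. Of 6 mammary epithelial markers, 4 were under 1 TPM in every library (Krt5, Krt14 and Epcam at 0), and nearly all of the list's summed 192.7 to 200.5 TPM with rGST and 196.8 to 200.2 with rSLURP1 was Krt18. The 4 mesenchymal genes summed to 8088 to 8289 TPM with rGST and 4981 to 5310 with rSLURP1. Fn1, S100a4 and Vim made up this sum, while Cdh2 was at or below 0.05 TPM in every library. Of the 3 tested, Vim and Fn1 were called lower under both scalings, at −0.92 and −0.81 as deposited and −0.557 and −0.45 with median-ratio scaling. S100a4 was not called as deposited (−0.0518, limma adjusted p = 0.417) and was called higher with median-ratio scaling (0.311, limma adjusted p = 0.00259). The cells thus carried 3 of the 4 mesenchymal transcripts and, Krt18 apart, little of the epithelial ones. The 6 fibroblast markers summed to 1046 to 1197 TPM with rGST and 58.81 to 66.62 with rSLURP1, with 5 of 5 tested genes lower. The 5 leukocyte markers summed to 3.58 to 4.08 TPM and 7.85 to 10.62 TPM, almost all of it Cd68, with Adgre1 and Cd3e at 0, and the 3 endothelial markers stayed at or below 0.31 TPM with Kdr at 0. The fibroblast list, Vim, Fn1 and Cd68 moved with treatment, as did Krt8 as deposited (log2 fold change −0.60, 1.40 to 1.66 TPM with rGST and 0.51 to 0.81 with rSLURP1). S100a4 and Krt18 were called higher with median-ratio scaling only. Krt18 was at 0.376 (limma adjusted p = 9.47e-05) there and at 0.0152 (limma adjusted p = 0.712) as deposited. The part of these markers in the results was not tested. In bulk RNA, fewer cells of a type and less RNA per cell cannot be told apart.

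The sequence upstream of the start was read from RefSeq promoters on GRCm38.p6, in which 7 of the 10 genes had an entry, with 10 starts in all. Ccnd1, Ccnd2 and Rb1 had no entry, so their promoters were not searched. Stretches of 250 bases are shown for the genes that moved apart, Cdkn1a and Cdkn1b, for Cdk4, the most abundant of the 10, and for the upstream start of Cdkn2a, with matches to the words searched in capitals. The words, searched on both strands, were TATAAA for the TATA box, CCAAT for the CCAAT box, GGGCGG for the GC box, CACGTG for the E box, TGACTCA or TGAGTCA for AP-1, GTAAACA for FOXO, CCCCACCC for KLF4 and, for E2F, TTTCCCGC or TTTGGCGC or TTTCGCGC or TTTGCCGC, and no word holds another.
Cdkn1a, first start, chr17:29090729-29090978, plus strand: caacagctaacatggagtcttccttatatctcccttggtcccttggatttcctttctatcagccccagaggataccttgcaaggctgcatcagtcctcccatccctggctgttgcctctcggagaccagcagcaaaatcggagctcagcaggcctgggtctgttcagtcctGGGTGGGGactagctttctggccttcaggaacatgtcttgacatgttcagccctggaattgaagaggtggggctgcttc
Cdkn1a, second start, chr17:29093519-29093768, plus strand: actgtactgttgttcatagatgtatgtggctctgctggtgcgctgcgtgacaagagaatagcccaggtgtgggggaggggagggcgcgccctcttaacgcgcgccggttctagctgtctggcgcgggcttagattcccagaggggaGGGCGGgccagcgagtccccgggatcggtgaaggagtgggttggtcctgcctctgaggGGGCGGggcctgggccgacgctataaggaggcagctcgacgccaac
Cdkn1b, chr6:134920151-134920400, plus strand: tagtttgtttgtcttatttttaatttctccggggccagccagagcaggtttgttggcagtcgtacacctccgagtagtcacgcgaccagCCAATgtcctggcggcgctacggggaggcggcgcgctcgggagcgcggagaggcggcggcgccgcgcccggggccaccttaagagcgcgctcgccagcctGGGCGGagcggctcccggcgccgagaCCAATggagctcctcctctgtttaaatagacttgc
Cdk4, chr10:127063285-127063534, plus strand: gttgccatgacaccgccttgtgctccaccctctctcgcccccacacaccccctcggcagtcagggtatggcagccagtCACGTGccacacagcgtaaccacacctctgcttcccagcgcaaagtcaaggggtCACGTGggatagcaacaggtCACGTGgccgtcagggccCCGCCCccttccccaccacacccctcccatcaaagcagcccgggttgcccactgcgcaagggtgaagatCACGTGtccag
Cdkn2a, upstream start, chr4:89294620-89294869, minus strand: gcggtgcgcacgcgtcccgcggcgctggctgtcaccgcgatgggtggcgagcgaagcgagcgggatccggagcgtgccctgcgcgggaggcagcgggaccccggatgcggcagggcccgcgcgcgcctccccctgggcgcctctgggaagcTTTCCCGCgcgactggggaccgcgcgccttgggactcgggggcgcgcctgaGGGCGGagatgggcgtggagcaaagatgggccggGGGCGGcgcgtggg

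The 2 starts of Cdkn1a differed in composition, with 2 CpG and 54% GC at the first and 19 CpG and 64.8% GC at the second, against medians of 6 CpG and 52.4% GC over all 32851 promoters. The first held 1 KLF4 word on the reverse strand, beginning 79 bases before the start, a word found in 9.05% of all promoters, and the second held 2 GC boxes, found in 32.7%. Cdkn1b held 2 CCAAT boxes (33.8% of promoters hold one) and 1 GC box, with 28 CpG. Cdk4 held 4 E boxes, a word found in 6.02% of promoters, and 1 GC box. The upstream start of Cdkn2a held 1 E2F word, found in 1.86% of promoters, and 2 GC boxes, in 78.4% GC and 40 CpG. The downstream start of Cdkn2a, not shown, held no match to any word, in 60% GC and 7 CpG. The starts of Cdkn2a were not assigned to transcripts. Among the starts not shown, Cdkn2b also held 1 KLF4 word, 69 bases before its start, Cdk6 held 1 TATA box (12.4% of promoters) and 1 E box, and the starts of Ccnd3 held 1 FOXO word (3.17%), 1 CCAAT box and 3 GC boxes between them. AP-1 words (4.46%) occurred in none of the 10 starts. A match is a run of letters only, and no binding was measured here.

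Of the D-type cyclins, Ccnd1 changed most. Ccnd1 (ENSMUSG00000070348.5, chr7:144929931-144939925 on GRCm38, minus strand) encodes cyclin D1, whose transcription responds to growth factor and integrin signals. It was at 61.84, 53.89 and 64.62 TPM with rGST and 23.36, 22.68 and 22.06 TPM with rSLURP1. The groups did not overlap, and the rSLURP1 libraries lay close together. The mean fell from 60.12 ± 5.57 to 22.70 ± 0.65 TPM (mean ± SD, n = 3, as for the other means below), a 2.65-fold difference, with a log2 fold change of −1.36 ± 0.07 (SE, limma adjusted p = 6.11e-06). With median-ratio scaling it was −1.01 (95% interval −1.19 to −0.835, limma adjusted p = 3.73e-05). Of all tested genes, 3.41% had a lower log2 fold change as deposited.

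Ccnd2 (ENSMUSG00000000184.12, chr6:127125162-127152193, minus strand) encodes cyclin D2. Its libraries were at 36.80, 36.56 and 41.42 TPM with rGST and 29.56, 27.84 and 24.61 TPM with rSLURP1, so the groups did not overlap. The log2 fold change was −0.47 ± 0.08 (limma adjusted p = 0.00163) as deposited and −0.12 (interval −0.313 to 0.0731, limma adjusted p = 0.259) with median-ratio scaling, under which no difference passed. Ccnd3 (ENSMUSG00000034165.16, chr17:47505051-47599691, plus strand) encodes cyclin D3, best known from lymphocytes. It was at 53.21, 53.79 and 55.92 TPM with rGST and 46.77, 48.09 and 45.01 TPM with rSLURP1, again without overlap. Its log2 fold change of −0.22 ± 0.05 (limma adjusted p = 0.00493) turned to 0.14 (interval 0.0411 to 0.239, limma adjusted p = 0.0269) with median-ratio scaling, so Ccnd3 fell in TPM and rose relative to the median gene.

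The D cyclins therefore changed by unequal amounts, which can be read without any scaling as their shares of D cyclin TPM within a library. Ccnd1 made up 40.72%, 37.36% and 39.90% of the summed TPM of the 3 cyclins with rGST and 23.43%, 23.00% and 24.06% with rSLURP1. The share of Ccnd3 rose from 35.62 ± 1.47% to 48.26 ± 1.18% and that of Ccnd2 from 25.05 ± 0.72% to 28.24 ± 1.40%. None of these shares overlapped between treatments. The shares are parts of 1 sum, so a smaller Ccnd1 share leaves more to the others, and in TPM as deposited Ccnd2 and Ccnd3 both fell. The summed TPM of the 3 cyclins was 144.2 to 162 with rGST and 91.68 to 99.69 with rSLURP1. Ccnd1 was thus the highest of the 3 by mean with rGST, where its range overlapped that of Ccnd3, and the lowest in each rSLURP1 library.

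**Figure D1:**
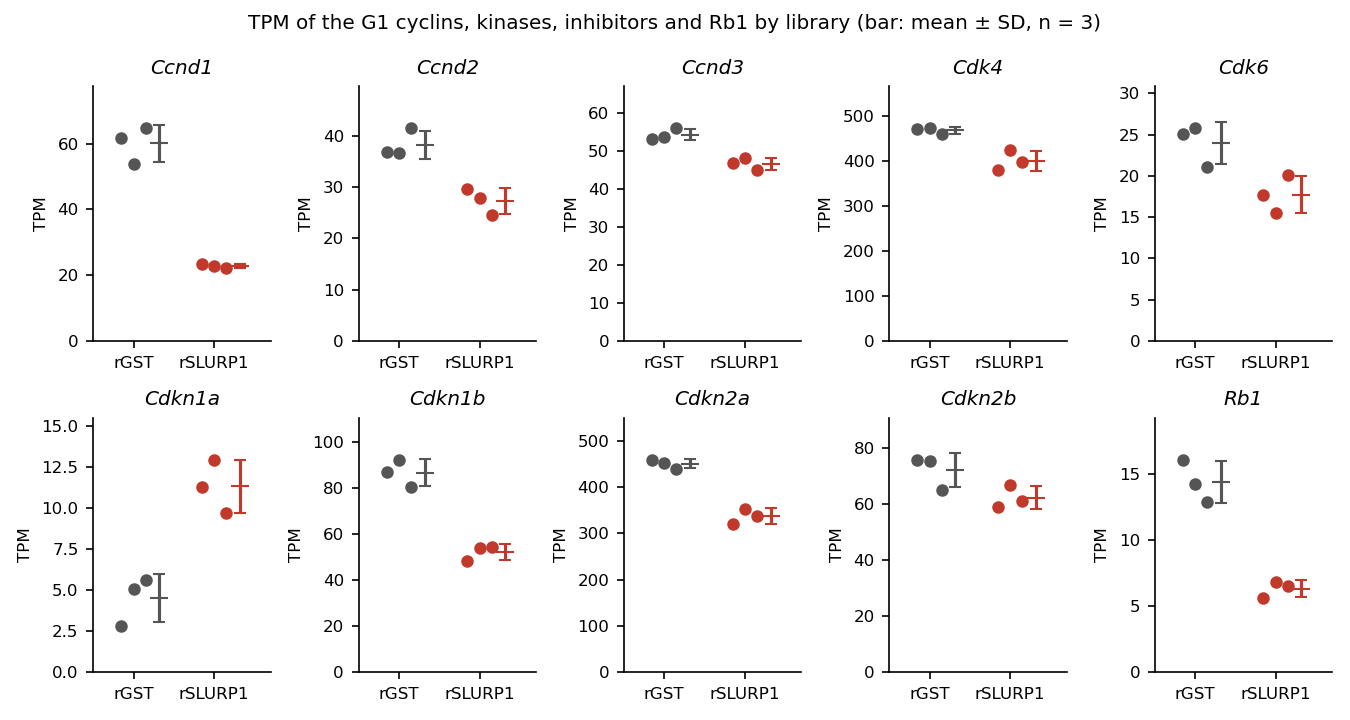
TPM of each of the 10 genes (vertical axes from 0, 1 scale per gene) in the 3 rGST (gray) and 3 rSLURP1 (red) libraries, with the mean and SD of each treatment as a bar. Ccnd1, Cdkn1b and Rb1 lie lower and Cdkn1a higher in every rSLURP1 library, and the 2 treatments overlap for Cdkn2b. How many of all tested genes separate without overlap was not counted.

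The kinases were 1.17-fold (Cdk4) and 1.35-fold (Cdk6) lower in TPM with rSLURP1, and neither was called lower after median-ratio scaling. Cdk4 (ENSMUSG00000006728.12, chr10:127063534-127067920, plus strand), a partner kinase of the D cyclins, was at 471.43, 472.28 and 459.77 TPM with rGST and 379.70, 423.90 and 397.07 TPM with rSLURP1. The groups did not overlap, but the direction depended on the scaling, with a log2 fold change of −0.23 ± 0.05 (limma adjusted p = 0.00325) as deposited and 0.136 (interval 0.0528 to 0.219, limma adjusted p = 0.0152) with median-ratio scaling. Cdk6 (ENSMUSG00000040274.11, chr5:3341485-3531008, plus strand), its close relative, was at 25.12, 25.74 and 21.08 TPM with rGST and 17.63, 15.49 and 20.05 TPM with rSLURP1. The highest rSLURP1 library of Cdk6 lay just below its lowest rGST library. Its log2 fold change was −0.42 ± 0.11 (limma adjusted p = 0.0118) as deposited and −0.072 (interval −0.351 to 0.207, limma adjusted p = 0.64) with median-ratio scaling. Cdk4 exceeded Cdk6 in every library, 18.35-fold to 21.81-fold with rGST and 19.80-fold to 27.37-fold with rSLURP1, ranges that overlap.

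Relative to the D cyclins, Cdk4 was higher in each rSLURP1 library. The ratio of Cdk4 to the summed D cyclins was 3.105, 3.274 and 2.839 with rGST and 3.809, 4.299 and 4.331 with rSLURP1. Ccnd1 TPM amounted to 11.41% to 14.05% of Cdk4 TPM with rGST and 5.35% to 6.152% with rSLURP1. These are ratios of transcripts and say nothing of protein complexes.

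The CIP/KIP inhibitors moved in opposite directions. Cdkn1a (ENSMUSG00000023067.13, chr17:29090976-29100727, plus strand) encodes p21, a target of p53 that stops CDK2 after DNA damage and other stresses. It was at 2.84, 5.10 and 5.64 TPM with rGST and 11.31, 12.93 and 9.72 TPM with rSLURP1. All rSLURP1 libraries lay above all rGST libraries, and rGST replicate 1 was the lowest of the 6. The mean rose from 4.53 ± 1.49 to 11.32 ± 1.61 TPM, with a log2 fold change of 1.19 ± 0.21 (limma adjusted p = 0.00174) and of 1.50 (interval 1.02 to 1.98, limma adjusted p = 0.0008) with median-ratio scaling. Of all tested genes, 0.976% had a higher log2 fold change as deposited. Without rGST replicate 1 the value was 0.945, under the 2-fold mark, and the call was kept.

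Cdkn1b (ENSMUSG00000003031.14, chr6:134920401-134925513, plus strand) encodes p27, which holds CDK2 inactive in resting cells. Its libraries were at 87.20, 92.34 and 80.74 TPM with rGST and 48.43, 54.16 and 54.35 TPM with rSLURP1, with a wide gap between the groups. The mean fell from 86.76 ± 5.81 to 52.31 ± 3.36 TPM, with a log2 fold change of −0.72 ± 0.07 (limma adjusted p = 7.57e-05) and of −0.361 (interval −0.509 to −0.213, limma adjusted p = 0.00252) with median-ratio scaling. Cdkn1b stayed the more abundant of the pair in every library. The share of Cdkn1a in the summed TPM of both was 3.154%, 5.234% and 6.529% with rGST and 18.93%, 19.27% and 15.17% with rSLURP1, with no overlap. The sum of the pair went from 91.29 ± 5.63 to 63.63 ± 3.69 TPM. The ratio of D cyclins to CIP/KIP inhibitors was 1.686, 1.480 and 1.875 with rGST and 1.669, 1.470 and 1.431 with rSLURP1, and these ranges overlapped.

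The INK4 locus on chromosome 4 was highly expressed in all libraries. Cdkn2a (ENSMUSG00000044303.6, chr4:89274471-89294653, minus strand) encodes p16INK4a, an inhibitor of CDK4 and CDK6, and from another first exon p19ARF, which stabilizes p53, and the gene-level row pools both transcripts. It was at 458.43, 452.48 and 439.55 TPM with rGST and 320.80, 353.39 and 338.12 TPM with rSLURP1, without overlap. Its log2 fold change was −0.42 ± 0.04 (limma adjusted p = 0.000125) as deposited and −0.0537 (interval −0.136 to 0.0291, limma adjusted p = 0.24) with median-ratio scaling, the only one of 16 alternatives that ended the call. With quantile normalization it was −0.263 and with the correction for length and GC content −0.283, both called lower. Cdkn2b (ENSMUSG00000073802.4, chr4:89306299-89311039, minus strand), the neighbouring gene for p15INK4b, was at 75.83, 75.59 and 65.29 TPM with rGST and 59.05, 66.84 and 61.33 TPM with rSLURP1. Its treatments overlapped, with rSLURP1 replicate 2 above rGST replicate 3. The log2 fold change of Cdkn2b was −0.21 ± 0.07 (limma adjusted p = 0.0399) as deposited and 0.151 (interval −0.00697 to 0.309, limma adjusted p = 0.0992) with median-ratio scaling, and the call was lost without rGST replicate 1 (−0.17) or 2 (−0.172) and without rSLURP1 replicate 1 (−0.168) or 3 (−0.195).

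Within a library, Cdkn2a stood just below Cdk4. The ratio of Cdkn2a to Cdk4 TPM was 0.9724, 0.9581 and 0.9560 with rGST and 0.8449, 0.8337 and 0.8515 with rSLURP1, lower in each rSLURP1 library with an SD of 0.00894 and 0.00903 around means of 0.962 and 0.843. Cdkn2a exceeded Cdkn2b 5.986-fold to 6.732-fold with rGST and 5.287-fold to 5.513-fold with rSLURP1. Of the 2 neighbours of the locus, Mtap, a gene of methionine salvage, went from 53.27 ± 1.74 to 41.78 ± 1.56 TPM, with a log2 fold change of −0.34 ± 0.05 (limma adjusted p = 0.000681) as deposited that turned to 0.0117 (limma adjusted p = 0.858) with median-ratio scaling. Dmrta1 did not pass under either scaling.

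Rb1 (ENSMUSG00000022105.6, chr14:73183673-73325822, minus strand), the pocket protein that D cyclin kinases inactivate, was lower in every rSLURP1 library. It was at 16.08, 14.28 and 12.91 TPM with rGST and 5.66, 6.83 and 6.56 TPM with rSLURP1. The lowest rGST library was well above the highest rSLURP1 library. The mean fell from 14.42 ± 1.59 to 6.35 ± 0.61 TPM, a 2.27-fold difference, with a log2 fold change of −1.07 ± 0.11 (limma adjusted p = 9.75e-05) and of −0.741 (interval −0.982 to −0.499, limma adjusted p = 0.000847) with median-ratio scaling. Rb1 amounted to 2.808% to 3.411% of Cdk4 TPM with rGST and 1.491% to 1.652% with rSLURP1. Its log2 fold change was −0.992 without rGST replicate 1 and −0.998 without rSLURP1 replicate 1, both under the 2-fold mark, and the call was kept.

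**Figure D2:**
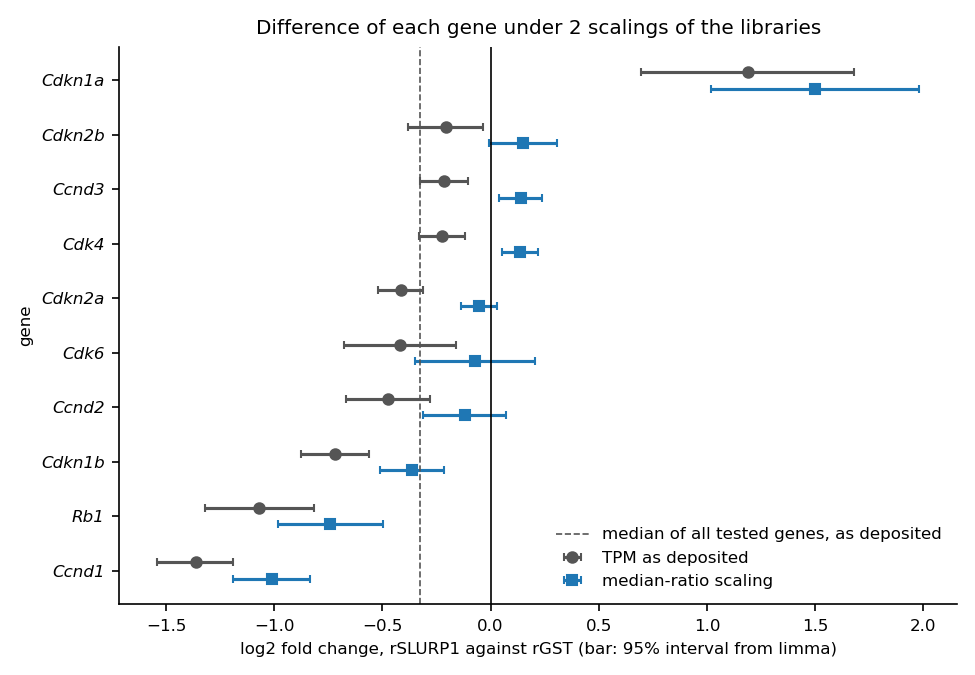
The log2 fold change of each gene, rSLURP1 against rGST (horizontal axis), with its 95% interval from limma, for TPM as deposited (gray circles) and after median-ratio scaling (blue squares), and the median of all tested genes as deposited (dashed line, −0.33). Ccnd1, Rb1 and Cdkn1b stay below 0 and Cdkn1a above 0 under both, while Ccnd3, Cdk4 and Cdkn2b change sides.

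Counted together, 1 of the 10 genes was called higher and 9 lower as deposited, where 8.66% of all tested genes were higher and 58.5% lower, and their median log2 fold change was −0.417 against −0.33 for all tested genes. After median-ratio scaling 3 were higher (Cdkn1a, Ccnd3 and Cdk4), 3 lower (Ccnd1, Cdkn1b and Rb1) and 4 not called, with a median of −0.0628. That scaling called 26.6% of all tested genes higher and 24.6% lower. As deposited, the 2-fold mark was passed by Cdkn1a upward, where 1.15% of tested genes did so, and by Ccnd1 and Rb1 downward, where 7.06% did. After median-ratio scaling it was passed by Cdkn1a (2.55% of tested genes) and by Ccnd1 (3.74%), and not by Rb1. Without rGST replicate 1 it was passed by Ccnd1 alone, since Cdkn1a was at 0.945 and Rb1 at −0.992, and without rSLURP1 replicate 1 by Ccnd1 and Cdkn1a, with Rb1 at −0.998. Replicate libraries differed least for Cdk4 with rGST, with a coefficient of variation of 1.49%, and most for Cdkn1a with rGST, at 32.8%, the lowest gene of the 10 in that treatment.

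**Figure D3:**
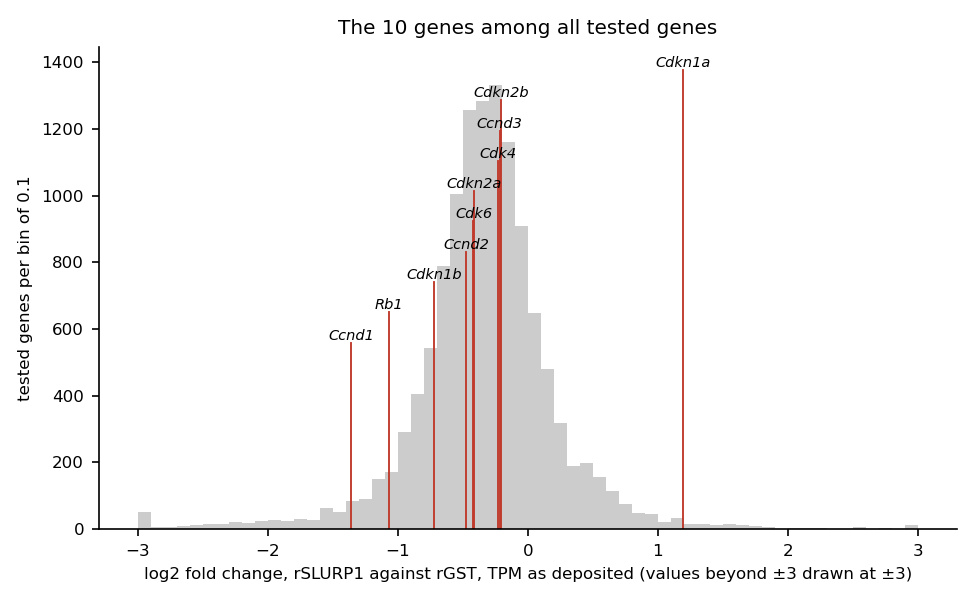
Histogram of the log2 fold changes of the 12301 tested genes as deposited (gray, genes per bin of 0.1), with the 10 genes as red lines whose heights only separate the names. Most of the 10 lie within the bulk of the genes, Ccnd1 and Rb1 in its lower flank and Cdkn1a far above it.

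By level, the order with rGST was Cdk4, Cdkn2a, Cdkn1b, Cdkn2b, Ccnd1, Ccnd3, Ccnd2, Cdk6, Rb1 and Cdkn1a, and only Ccnd1 and Ccnd3 had ranges that overlapped. With rSLURP1 it was Cdk4, Cdkn2a, Cdkn2b, Cdkn1b, Ccnd3, Ccnd2, Ccnd1, Cdk6, Cdkn1a and Rb1, with no overlap between neighbours. The orders differ in 3 places: Cdkn2b passed Cdkn1b, Ccnd1 dropped below both other D cyclins, and Cdkn1a passed Rb1. The TPM ratio of Cdkn1a to Ccnd1, the most opposed pair, was 0.04592 to 0.09464 with rGST and 0.4406 to 0.5701 with rSLURP1.

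**Figure D4:**
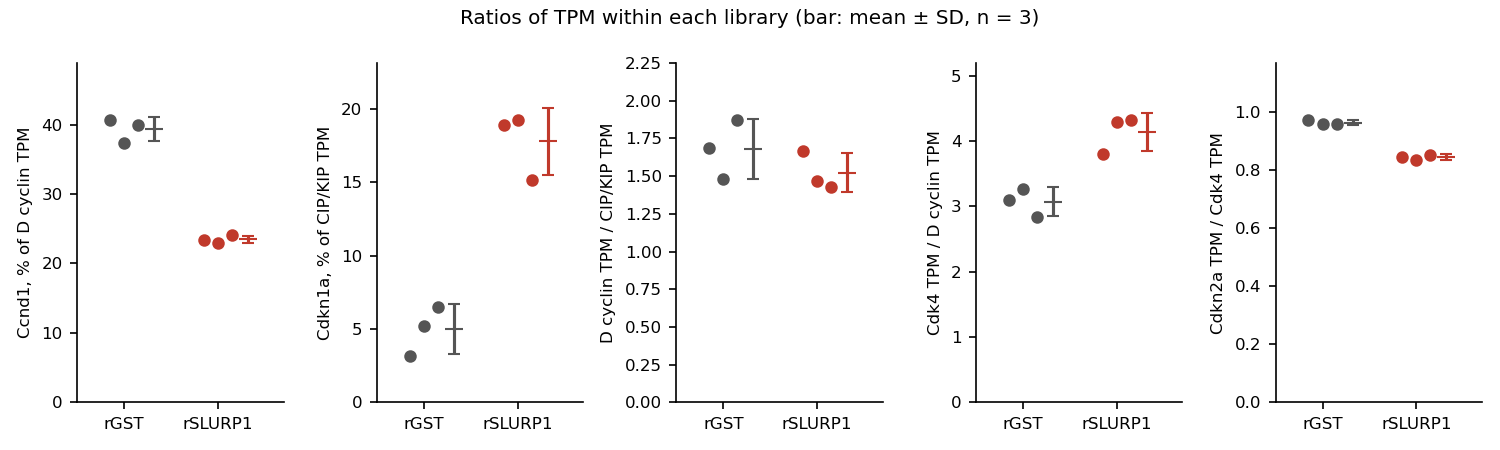
Ratios of TPM within each library (vertical axes from 0), for rGST (gray) and rSLURP1 (red), with mean and SD. From left to right are Ccnd1 as a percent of D cyclin TPM, Cdkn1a as a percent of CIP/KIP TPM, D cyclins over CIP/KIP inhibitors, Cdk4 over D cyclins and Cdkn2a over Cdk4, and only the third overlaps between treatments.

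The genes with the pattern most like Ccnd1 over the 6 libraries, by Pearson correlation of log2(TPM + 1), were Arid1b, Tmed8 and Chchd10 (r = 0.999 each), and 449 tested genes reached 0.99. For Cdkn1a they were Yars (0.997), Hdhd3 (0.995) and Lrrfip1 (0.993), and 8 genes reached 0.99. All 6 points share the treatment contrast, so the values describe likeness only.

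Beyond the 10, genes of G1 and S phase control were counted in lists by role. Of 83 listed genes 82 were tested, of which 6 were higher, 58 lower and 18 not called in the TPM as deposited, with a median log2 fold change of −0.354. Over all tested genes 8.66% were higher and 58.5% lower, with a median of −0.33. After median-ratio scaling 17 of the listed genes were higher, 16 lower and 49 not called, where 26.6% of all tested genes were higher and 24.6% lower. Under both scalings 6 were higher and 16 lower, and 3 had opposite calls. The same counts over all tested genes were not made, so these have no background beside them.

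In the cyclin E and CDK2 axis, which acts after the D cyclins, 6 of 8 genes were lower and none higher as deposited, where 58.5% and 8.66% of all tested genes were. With median-ratio scaling 2 were lower and 1 higher, where 24.6% and 26.6% of all tested genes were. Cdk7, the kinase that activates other CDKs, went from 64.40 ± 1.55 to 40.83 ± 0.88 TPM, with a log2 fold change of −0.65 ± 0.04 (limma adjusted p = 1.76e-05) and of −0.289 (limma adjusted p = 0.00145) with median-ratio scaling. Cdk2 went from 31.02 ± 1.24 to 20.67 ± 1.04 TPM, at −0.56 ± 0.06 (limma adjusted p = 0.000154) and −0.215 (limma adjusted p = 0.0237). Ccne1, a cyclin E gene, was at 9.77 ± 0.89 and 11.04 ± 1.15 TPM with overlapping libraries. Ccne1 was not called as deposited (limma adjusted p = 0.204) and was the 1 gene called higher with median-ratio scaling (0.489, limma adjusted p = 0.00447). Its paralog Ccne2 was called under neither (0.103, limma adjusted p = 0.657, and 0.384, limma adjusted p = 0.136). Ccna2 was lower as deposited (−0.481, limma adjusted p = 0.000405) and not called with median-ratio scaling (−0.13, limma adjusted p = 0.107). Ccne1, Ccne2 and Ccna2 were named after their values were seen.

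Of the other CDK inhibitors, Cdkn1c (p57) was at or below 0.06 TPM in every library and was not tested. Cdkn2c (p18INK4c) went from 58.08 ± 1.49 to 40.07 ± 2.48 TPM, with a log2 fold change of −0.53 ± 0.06 (limma adjusted p = 0.000145) and of −0.171 (limma adjusted p = 0.0196) with median-ratio scaling. Cdkn2d (p19INK4d) went from 19.53 ± 1.01 to 16.70 ± 0.85 TPM, and its value of −0.21 ± 0.07 (limma adjusted p = 0.0271) turned to 0.13 (limma adjusted p = 0.168) with median-ratio scaling. The Cdkn2d call was also lost without rGST replicate 1 (−0.199) or 2 (−0.187) and without rSLURP1 replicate 1 (−0.203) or 2 (−0.186). Of the 4 INK4 genes, Cdkn2b and Cdkn2d turned direction with median-ratio scaling, Cdkn2a kept its direction without the call, and Cdkn2c kept both.

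Of the 12 other pocket protein, E2F and DP genes, 6 were lower and none higher as deposited, whereas after median-ratio scaling 5 were higher and 3 lower. The shares of all tested genes were 58.5% lower and 8.66% higher as deposited, and 24.6% lower and 26.6% higher after median-ratio scaling. Rbl2, the gene for p130, which with E2F4 represses cell cycle genes in resting cells, fell as well, from 29.37, 32.15 and 30.53 TPM to 14.35, 15.19 and 14.67 TPM. Its log2 fold change was −1.01 ± 0.06 (limma adjusted p = 9.85e-06) as deposited and −0.663 (limma adjusted p = 6.83e-05) with median-ratio scaling. E2f8, an atypical repressor of the family, went from 3.96 ± 0.19 to 2.21 ± 0.09 TPM, at −0.62 ± 0.11 (limma adjusted p = 0.00141) and −0.354 (limma adjusted p = 0.0262). Of the MuvB core and B-Myb, which join p130 in the DREAM repressor or drive mitotic genes, 4 of 6 were lower as deposited, beside the 58.5% of all tested genes. None of the 6 was called with median-ratio scaling, where 26.6% of all tested genes were higher and 24.6% lower. Lin9 was at −0.65 ± 0.13 (limma adjusted p = 0.00264) and Lin52 at −0.49 ± 0.13 (limma adjusted p = 0.0114) as deposited, and at −0.331 (limma adjusted p = 0.0617) and −0.174 (limma adjusted p = 0.284) with median-ratio scaling.

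The ubiquitin ligases that degrade G1 cyclins and CDK inhibitors were lower in 13 of 14 genes and higher in 1 as deposited, where 58.5% of all tested genes were lower and 8.66% higher. With median-ratio scaling 1 was lower and 1 higher, where 24.6% and 26.6% of all tested genes were. The gene that rose was Cks1b, the cofactor with which SKP2 recognizes p27, from 130.50, 142.85 and 137.39 TPM to 168.92, 169.02 and 159.25 TPM. Its log2 fold change was 0.27 ± 0.05 (limma adjusted p = 0.00151) and 0.635 (limma adjusted p = 2.75e-05) with median-ratio scaling. Fbxo4, an F-box protein linked to cyclin D1, was at −0.58 ± 0.06 (limma adjusted p = 0.000148) and −0.228 (limma adjusted p = 0.0125). Rnf123, the catalytic subunit of a ligase for p27 in G1, was at −0.72 ± 0.15 (limma adjusted p = 0.0042) and −0.374 (limma adjusted p = 0.0685).

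E2F target genes of S phase were lower in 14 of 21 and higher in 1 as deposited, with a median log2 fold change of −0.336. Of all tested genes, 58.5% were lower and 8.66% higher, with a median of −0.33. After median-ratio scaling 4 of the 21 were higher and 3 lower, where 26.6% of all tested genes were higher and 24.6% lower. Rrm1, the large subunit of ribonucleotide reductase, fell from 47.44, 56.39 and 55.90 TPM to 26.04, 27.66 and 27.01 TPM, at −0.95 ± 0.08 (limma adjusted p = 3.19e-05) and −0.602 (limma adjusted p = 0.000394) with median-ratio scaling. Mcm4, of the replicative helicase, fell from 31.64 ± 3.33 to 18.36 ± 1.19 TPM, at −0.75 ± 0.09 (limma adjusted p = 0.000202) and −0.402 (limma adjusted p = 0.00479). Cdt1, which loads that helicase, rose from 23.49, 28.72 and 29.31 TPM to 35.84, 34.53 and 29.57 TPM, at 0.29 ± 0.11 (limma adjusted p = 0.0423) and 0.637 (limma adjusted p = 0.00178). The lowest rSLURP1 library of Cdt1 lay just above its highest rGST library, and its call as deposited was lost without rGST replicate 1 (0.189) or 2 (0.328) and without rSLURP1 replicate 1 (0.233) or 2 (0.259).

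Transcription factors and repressors known to act on the 10 genes included the largest differences of the listed genes in each direction. Of 17 tested, 4 were higher and 12 lower in the TPM as deposited, where 8.66% and 58.5% of all tested genes were. After median-ratio scaling each direction had 6, where 26.6% of all tested genes were higher and 24.6% lower. Fos, a subunit of AP-1, rose from 4.45, 5.83 and 3.88 TPM to 15.14, 17.35 and 15.94 TPM, at 1.60 ± 0.13 (limma adjusted p = 4.06e-05) and 1.91 (limma adjusted p = 2.17e-05) with median-ratio scaling. Id1, an inhibitor of basic helix-loop-helix factors that can repress Cdkn2a through ETS proteins, rose from 28.35, 28.20 and 29.45 TPM to 82.97, 88.17 and 82.38 TPM, at 1.53 ± 0.05 (limma adjusted p = 5.72e-07) and 1.88 (limma adjusted p = 3.22e-07). Ets1, an activator of p16INK4a, fell from 33.02, 38.71 and 31.55 TPM to 14.32, 15.21 and 15.56 TPM, at −1.14 ± 0.09 (limma adjusted p = 2.53e-05) and −0.793 (limma adjusted p = 0.000209). Klf4, a Krüppel-like factor and a known activator of Cdkn1a whose word lies upstream of the first Cdkn1a start and of Cdkn2b, fell from 34.36, 32.77 and 32.85 TPM to 17.57, 18.59 and 16.10 TPM, at −0.90 ± 0.07 (limma adjusted p = 2.51e-05) and −0.552 (limma adjusted p = 0.000262). The treatments did not overlap in any of these 4 genes, which are the largest calls of their list. How many of all tested genes separate in this way was not counted. Ets2, of the same family as Ets1, was higher, at 0.42 ± 0.07 (limma adjusted p = 0.00107) and 0.773 (limma adjusted p = 3.9e-05). Of the repressors in this list, Bmi1 was at −0.627 and −0.274 and Cbx7 at −0.656 and −0.305, called lower under both scalings. Ezh2 was at −0.306, called lower, and at 0.0464, not called. Ets2, Bmi1, Cbx7 and Ezh2 were named after their values were seen, and no effect on Cdkn2a was tested.

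**Figure D5:**
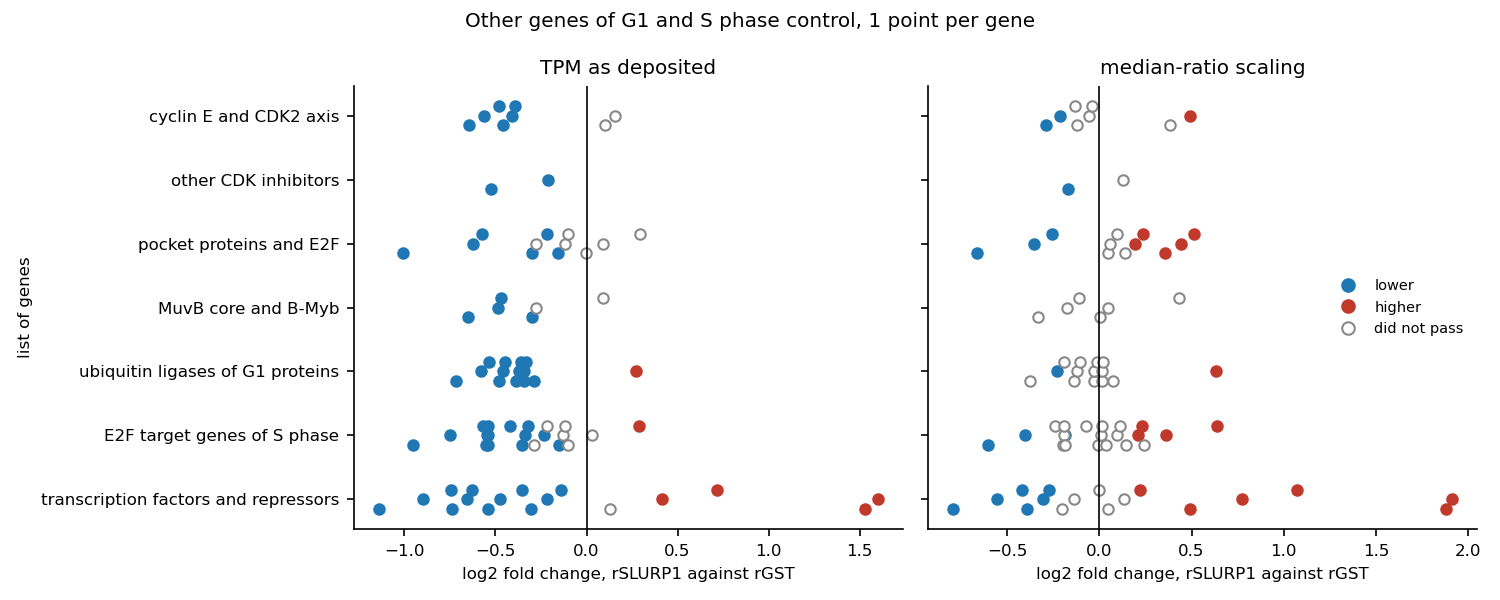
The log2 fold change, rSLURP1 against rGST (horizontal axes), of each tested gene in 7 lists of G1 and S phase control (1 point per gene, spread vertically only for clarity), as deposited (left) and after median-ratio scaling (right), with filled points for genes that passed the test. Most points lie left of 0 as deposited and on both sides of 0 after median-ratio scaling, with Fos and Id1 farthest to the right in both.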

How the data were processed

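RNAseq of D2A1 spheroids was analysed in 6 libraries, 3 with rGST and 3 with rSLURP1, grouped by the labels. The authors deposited TPM per gene and library, made with Cutadapt, STAR on mm10 and RSEM, without pooling. The submitters' processing notes list bcl2fastq 2.20, cutadapt 1.18, STAR 2.5.2b, RSEM 1.3.3 and DESeq2. Library preparation is given as a TruSeq kit by the labels and as Smart-seq2 by the study's methods. Coordinates came from GENCODE M21 (GRCm38), which matched 54079 identifiers without their version and 52480 with it.

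Testing used limma 3.58.1 in R 4.3.3 (lmFit, then eBayes with trend) on log2(TPM + 1), without a block, and Benjamini-Hochberg adjustment over the 12301 tested genes. The thresholds, an adjusted p of 0.05 and a fold of 2, are those of the study's methods. Median-ratio factors used genes above 0 in all 6 libraries, and 95% intervals used limma's moderated SE. The code was tested on simulated data. Ratios within libraries have no test.

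The 10 genes and the other lists were chosen with earlier results of these data known. The genes named are the 10, in each other list the 2 higher and the 2 lower calls with the largest log2 fold change, and the 3 most correlated with Ccnd1 and with Cdkn1a. Ccne1, Ccne2, Ccna2, Ets2, Bmi1, Cbx7 and Ezh2 were added after their values were seen. The alternatives changed the pseudocount (to 0.1), the filter (none, or all 6 libraries), the scaling (median-ratio, quantile, no mitochondrial genes), the trend, and the block (by replicate number). Others corrected for the length and GC content of transcripts (loess, span 0.3), with and without the block, or left out each library. Depth could not be derived from TPM, and no counting error is given. Tables and figures used Python 3.11.15, pandas 2.3.3, scipy 1.17.1 and matplotlib 3.10.9.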

Additional observations from a re-analysis of the deposited data

How the results depend on the processing

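Over 16 alternatives the 10 genes gave 160 values, of which 132 kept direction and side of the threshold, 15 kept direction but lost the call and 13 turned direction, and 19 other named genes gave 304, of which 268, 29 and 7 did so. Ccnd1 (−1.44 to −0.946), Cdkn1a (0.945 to 1.58), Cdkn1b (−0.769 to −0.328) and Rb1 (−1.17 to −0.674) were called under all 16, and Cdkn2b under 5. Of the 10 genes, median-ratio scaling gave 3 higher and 3 lower, and quantile normalization 1 higher and 4 lower, against 1 and 9 as deposited. Correcting for length and GC content gave 2 higher and 4 lower. Under these alternatives, in that order, 6303, 6016 and 6013 of all tested genes were called in either direction, against 8265. After median-ratio scaling 26.6% of tested genes were higher and 24.6% lower, and for the others the directions were not counted. Genes of the 10 past 2-fold numbered 1 after correcting for length and GC content and 1 to 3 with a library left out, against 3. The shares of all tested genes past 2-fold were not counted there. Of the other listed genes, median-ratio scaling gave 17 higher and 16 lower, quantile normalization 17 and 18, and correcting for length and GC content 17 and 13, against 6 and 58. These 3 alternatives move the median of all genes to near 0. In that order, the log2 fold change was 0.14, 0.103 and 0.228 for Ccnd3, 0.151, 0.0763 and 0.0226 for Cdkn2b, and 0.13, 0.185 and 0.0207 for Cdkn2d. Cdk4 was at 0.136 with median-ratio scaling and 0.0956 after correcting for length and GC content, Mtap at 0.0117 and 0.00853, and Cdk6 at 0.041 after the latter.

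With the replicate block, 1 of the 10 genes was higher, 9 were lower and 3 passed 2-fold, and 7962 genes were called in all against 8265. Of the other listed genes 5 were higher and 54 lower, and Cdkn2d and Cdt1 were no longer called. When the correction for length and GC content was combined with the block, 2 of the 10 were higher, 4 lower and 1 past 2-fold. Of the other listed genes 16 were higher and 11 lower, with the log2 fold changes of the correction alone. Directions over all tested genes were not counted under either block setting. Deviations of same-numbered libraries correlated at −0.0556, −0.034 and −0.0607, so the numbers were not treated as pairs. Over the alternatives 5565 to 8221 genes were called in all. TPM does not show what read depth limits.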
